A study of Mus musculus with 4 samples.

Results

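The genes described here carry out or control cholesterol export, storage and transport inside the cell, the processes that run opposite to cholesterol synthesis. They are the 10 genes Nr1h2, Nr1h3, Abca1, Abcg1, Mylip, Lpcat3, Soat1, Npc1, Npc2 and Stard4, found by gene symbol among the 47729 gene rows of the count table. All 10 were present and all 10 passed the filter on low counts, which left 13732 genes for testing.

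The libraries came from mouse CD4 T cells (C57BL/6, spleen per the labels) cultured as induced regulatory T (iTreg) cells. Such cells acquire the transcription factor Foxp3 in vitro. Both groups received TGF-β at 5 ng/mL, IL-2 at 100 U/mL and antibodies blocking IL-4 and IFN-γ at 5 µg/mL each. In the study's methods, the T cells in such cultures were also stimulated with antibodies against CD3 and CD28. For 4 days, 1 group was also given 50 µM ferrous sulfate (FeSO4), a dose given in the labels, and the other, called Mock, was given PBS. Each group had 2 libraries. The methods describe wild-type cells, 2 pairs of samples drawn from separate experiments, and naive CD4 T cells as the starting population. Apart from a Tfrc knockout line, which is not used here, the mice of the study were age-matched young adults, and the sex of those behind these libraries is not stated for them. The comparison asks which transcripts differ when iTreg cells are cultured with extra iron.

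Gene rows held 39747890 and 40859178 reads in Mock and 35183187 and 37735336 in FeSO4. A count of 0 in a library allows up to 3 counts, or 0.0717 to 0.0876 CPM (counts scaled to the size of the library), a limit that covers counting error only. The T cell genes Cd3e (304 to 346 CPM) and Cd4 (606 to 683 CPM) were abundant in every library. Foxp3 was present in every library as well, at 587 and 693 CPM in the Mock libraries, against 376 and 472 CPM with FeSO4. Foxp3 (-0.59 ± 0.09 on the log2 scale, edgeR adjusted p = 0.000223) and Ikzf2 (-0.79 ± 0.14, adjusted p = 0.000986), both Treg markers, were lower in FeSO4. Of the 8 T cell markers, the T cell receptor genes Cd3g (0.50 ± 0.06, adjusted p = 2.04e-05) and Trac (0.19 ± 0.06, adjusted p = 0.0451) were higher, and the other 4 were not called. Mock replicate 1 stood apart in Lyz2, a macrophage lysozyme gene, with 164 counts against 8 in Mock replicate 2 and 0 in each FeSO4 library. The summed B cell markers were at 162 to 173 CPM in Mock and 248 to 278 CPM in FeSO4, nearly all from Ighm (159 to 275 CPM), while Ms4a1 and Pax5 had at most 1 count in any library. The summed erythroid and platelet markers were at 20.9 to 26.0 CPM in Mock and 33.2 to 38.4 CPM in FeSO4, mostly from Hba-a1, with Ppbp at 0, and the CD8 and NK cell markers at 12.1 to 13.7 CPM overall. The part of other cells in the results was not tested.

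A cell handles surplus cholesterol in several ways. Oxysterols and late sterol intermediates activate the liver X receptors (LXRs), nuclear receptors that pair with RXR and switch on exporters of the ABC family, a ubiquitin ligase that acts on lipoprotein uptake, and an enzyme that remodels membrane phospholipids. Cholesterol that stays in the cell is released from lysosomes, carried through the cytosol and stored as esters, and in T cells LXR activity has been linked to the control of proliferation.

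Of the 10 genes, 3 were higher in FeSO4 (Stard4, Abcg1 and Lpcat3), 1 was lower (Abca1) and 6 did not pass the threshold. The threshold was an adjusted p under 0.05 in edgeR's quasi-likelihood test with Benjamini-Hochberg adjustment over all genes tested. Over all tested genes, 20.0% passed it, 10.9% as higher and 9.17% as lower. At the study's threshold, an unadjusted p under 0.05 with a log2 fold change of at least 0.5 in size, 2 of the 10 genes were higher (4.67% of all genes) and 1 was lower (5.73% of all genes), where 10.4% of all genes passed in either direction. Both FeSO4 libraries lay above both Mock libraries for 5 genes and below them for 4, and only the libraries of Nr1h2 overlapped. Groups that did not overlap were found for 59.5% of all tested genes, with FeSO4 above in 30.1% and below in 29.4%. The changes went both ways, with a median log2 fold change of 0.0059 over the 10 genes and of -0.00052 over all genes tested. The median size of the log2 fold change was 0.38 for the 10 genes and 0.20 for all genes.

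**Figure D1:**
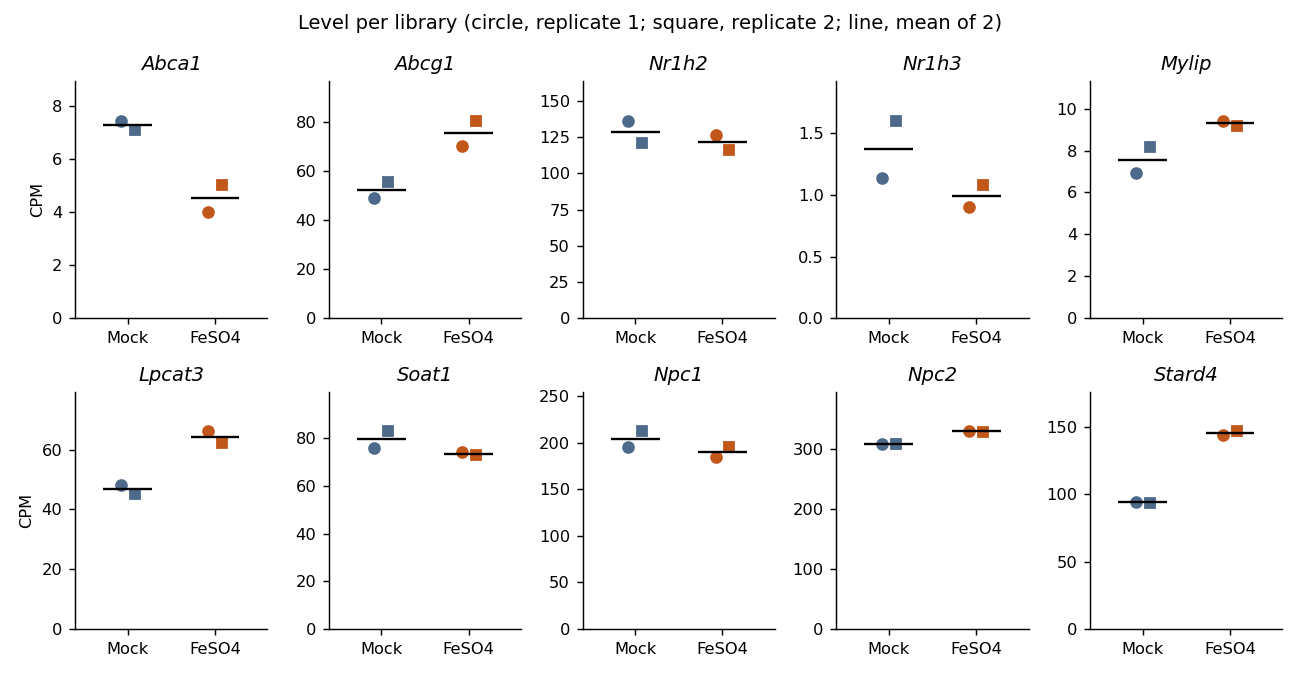
Level of each of the 10 genes in CPM (y axes from 0, a scale of its own for each gene) in the Mock and FeSO4 groups, with a circle for replicate 1, a square for replicate 2 and a line at the mean of 2 libraries. The FeSO4 points sit above the Mock points for Stard4, Abcg1, Lpcat3, Mylip and Npc2, below them for Abca1, Nr1h3, Soat1 and Npc1, and among them for Nr1h2.

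The receptors come first. Nr1h2 (ENSMUSG00000060601; chr7:51804986-51809321, minus strand; gene positions are in mm9) encodes LXRβ, the form found in most tissues. It measured 136 and 121 CPM in the Mock libraries, against 126 and 116 CPM with FeSO4. These libraries overlapped, and the log2 fold change was -0.08 ± 0.08 (SE; 95% interval -0.24 to 0.08; adjusted p = 0.478). Nr1h3 (ENSMUSG00000002108; chr2:91024218-91042991, minus strand) encodes LXRα, which is typical of liver, fat and macrophages. Over 34 bases, its exons overlap those of Gm13783 on the same strand. Nr1h3 had only 46 and 67 reads in Mock and 31 and 40 in FeSO4, or 1.13 and 1.6 CPM against 0.905 and 1.08 CPM. Both FeSO4 libraries were the lower ones. The log2 fold change of -0.46 ± 0.40 had a wide interval from -1.31 to 0.39 and did not pass the threshold (adjusted p = 0.466).

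Nearly all LXR reads therefore came from Nr1h2. Its share of the reads on both receptor genes, with intervals that cover counting error only, was 99.2% (95% Wilson interval 98.9 to 99.4) and 98.7% (98.3 to 99.0) in the Mock libraries, and 99.3% (99.0 to 99.5) and 99.1% (98.7 to 99.3) in the FeSO4 libraries. Per kilobase of annotated exon, the level of Nr1h2 was 56.3 to 104 times that of Nr1h3. The share lay above 98% in each library of both groups.

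The exporters, both classical LXR targets, moved in opposite directions. Abca1 (ENSMUSG00000015243; chr4:53043659-53172767, minus strand) passes cholesterol and phospholipid to lipid-poor apolipoprotein A-I. It had 303 and 298 reads in Mock and 137 and 187 in FeSO4, which correspond to 7.47 and 7.13 CPM against 4.00 and 5.05 CPM. The Mock libraries lay close together, and the FeSO4 libraries were both lower and further apart. The Mock mean was 7.30 ± 0.242 CPM and the FeSO4 mean 4.53 ± 0.745 CPM (SD, n = 2 each). On the log2 scale this was a change of -0.68 ± 0.20 (SE; 95% interval -1.11 to -0.26; edgeR adjusted p = 0.0235). The fitted level in FeSO4 was 0.623 of that in Mock (95% interval 0.465 to 0.835).

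The call of Abca1 was close to the threshold. The adjusted p was 0.0581 with DESeq2, 0.0936 when all genes with at least 1 count were tested, 0.081 without Mock replicate 1, 0.0666 without Mock replicate 2 and 0.191 without FeSO4 replicate 1, and the log2 fold change stayed between -0.86 and -0.53 in all 15 fits. Macrophages express Abca1 strongly, and the 15 myeloid marker genes summed to 98.7 to 114 CPM in Mock and 125 to 127 CPM in FeSO4, most of it from Cst3, with 7 of the 15 at no more than 10 counts in any library and Marco at 0 in all 4. Without Cst3 and Apoe, a choice made after the values were seen, the sum was 9.74 and 4.57 CPM in the Mock libraries, against 4.14 and 4.16 CPM with FeSO4. The part of such cells in the Abca1 difference was not tested. In bulk RNA, fewer cells that express a gene and less RNA per cell cannot be told apart.

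Among the 10 genes, the promoter letters searched for were found only at Abca1, and both stretches are shown here for that reason. The search covered 8 RefSeq windows (GRCm38.p6) of 250 bases before to 50 bases after the start for 7 of the genes, since Nr1h3 had a pair of windows. Abcg1, Npc1 and Stard4 had none. In the sequences, written 5′ to 3′ in the direction of the gene, capitals mark the matched letters. The first match is a loose form of the LXR element DR4 (GGTNA, then 5 bases of any kind, then GGTNA). Found on the reverse strand, it lies at positions -67 to -53, with the start as 0. The second is an E-box (CACGTG) at positions -147 to -142. With their flanking bases, the stretches shown are chr4:53159943-53159967 for the DR4 and chr4:53160032-53160047 for the E-box.
Abca1 DR4: gcgttTGACCGGTAGTAACCccggc
Abca1 E-box: gtctcCACGTGctttc

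Both strands were searched. The loose DR4 occurred in 0.718% of all 32851 windows and the E-box in 7.15%. The full consensus (AGGTCA, then 4 bases of any kind, then AGGTCA), of which every copy is also a copy of the loose form, was in 0.0152% of all windows, and TCACNCCA, a core of the sterol regulatory element bound by SREBP, was in 4.36%. Neither was in the 8 windows searched here. A match describes these letters only, and the absence of a match says nothing about other windows.

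Abcg1 (ENSMUSG00000024030; chr17:31194643-31252722, plus strand) moves cholesterol towards mature HDL particles. It measured 49.1 and 55.5 CPM in the Mock libraries, against 70.5 and 80.7 CPM with FeSO4. Both FeSO4 libraries lay well above both Mock libraries, and the mean rose from 52.3 ± 4.48 to 75.6 ± 7.25 CPM (SD, n = 2 each). The log2 fold change was 0.53 ± 0.09 (SE; 95% interval 0.35 to 0.72; edgeR adjusted p = 0.000443), a 1.45-fold increase (1.27 to 1.64). The call held in every fit that was tried, with adjusted p from 1.67e-05 to 0.0485.

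Within a library, the balance of the exporters needs no scaling between libraries. Reads on Abcg1 outnumbered those on Abca1 by 6.58 and 7.79 times in Mock and by 17.6 and 16.0 times in FeSO4. Per kilobase of exon, the ratio was 16.8 and 19.8 in Mock and 44.9 and 40.7 in FeSO4. All FeSO4 values lay above all Mock values. This had to be so, since both FeSO4 libraries were above Mock for Abcg1 and below it for Abca1. The log2 ratio was higher by 1.23 in FeSO4 (exact permutation test, two-sided, p = 0.333, the smallest value that 2 against 2 libraries allow). It restates the changes of the 2 genes and is no separate evidence.

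A further pair of LXR targets acts on lipoprotein uptake and on membranes. Mylip (ENSMUSG00000038175; chr13:45485111-45507388, plus strand) encodes the ubiquitin ligase IDOL, which limits lipoprotein uptake. It measured 6.93 and 8.18 CPM in the Mock libraries, against 9.43 and 9.19 CPM with FeSO4. The FeSO4 libraries were the upper ones, but the log2 fold change of 0.30 ± 0.17 (95% interval -0.05 to 0.65) did not pass the threshold (adjusted p = 0.231). Its estimate ranged from 0.18 to 0.43 over the fits.

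Lpcat3 (ENSMUSG00000004270; chr6:124613045-124654436, plus strand) encodes an acyltransferase that places polyunsaturated fatty acids into lysophospholipids. It measured 48.3 and 45.3 CPM in the Mock libraries, against 66.1 and 62.3 CPM with FeSO4. The FeSO4 libraries lay above the Mock libraries by more than the spread within either pair. The mean rose from 46.8 ± 2.11 to 64.2 ± 2.7 CPM (SD, n = 2 each). On the log2 scale this was a change of 0.46 ± 0.08 (SE; 95% interval 0.29 to 0.63; edgeR adjusted p = 0.000792). Its call held in every fit at an adjusted p under 0.05, but a log2 fold change of 0.46 is under the minimum of 0.5 in the study's threshold. Over 38 bases, its exons overlap those of Emg1 on the other strand.

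Cholesterol storage is represented by Soat1 (ENSMUSG00000026600; chr1:158358239-158404459, minus strand), which encodes the acyltransferase ACAT1 that makes cholesteryl esters. It measured 76.1 and 83.0 CPM in the Mock libraries, against 74.1 and 73.0 CPM with FeSO4. The FeSO4 libraries were slightly below the Mock libraries, with a log2 fold change of -0.11 ± 0.08 (95% interval -0.27 to 0.05; adjusted p = 0.325). The interval leaves room for a fitted level in FeSO4 of 0.829 to 1.03 times that in Mock.

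Npc1 and Npc2 encode the proteins that hand cholesterol out of the lysosome, the first in the lysosomal membrane and the second soluble in its lumen. Npc1 (ENSMUSG00000024413; chr18:12348202-12394909, minus strand) measured 196 and 212 CPM in the Mock libraries, against 184 and 195 CPM with FeSO4. Npc2 (ENSMUSG00000021242; chr12:86095510-86114062, minus strand) measured 308.1 and 308.5 CPM in the Mock libraries, against 329.7 and 329.0 CPM with FeSO4. The fitted changes of the partners had opposite signs, but neither passed the threshold. Neither gene overlapped between the groups, as was the case for 59.5% of all tested genes. With scaling by library size only, the log2 fold change of Npc2 was 0.03. The log2 fold change was -0.10 ± 0.07 for Npc1 (95% interval -0.25 to 0.04; adjusted p = 0.299). It was 0.10 ± 0.06 for Npc2 (95% interval -0.03 to 0.22; adjusted p = 0.286). For both genes, the interval lies within 0.25 of no change on the log2 scale. The exons of Npc1 overlap those of 2 genes on the other strand over 282 bases, so that some of its reads could belong to them.

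Stard4 (ENSMUSG00000024378; chr18:33359009-33373516, minus strand) encodes a soluble protein that carries cholesterol between membranes. Unlike the LXR targets above, it is known as a target of SREBP2, the activator of cholesterol synthesis. It measured 94.4 and 93.4 CPM in the Mock libraries, against 144 and 147 CPM with FeSO4. The libraries of each group nearly coincided, and the mean rose from 93.9 ± 0.701 to 145 ± 2.20 CPM (SD, n = 2 each). Its log2 fold change of 0.63 ± 0.07 (SE; 95% interval 0.49 to 0.77) had the smallest p of the 10 genes (edgeR adjusted p = 6.23e-06), and corresponded to a 1.55-fold increase (1.40 to 1.71). The call held in every fit, with estimates between 0.56 and 0.65.

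**Figure D2:**
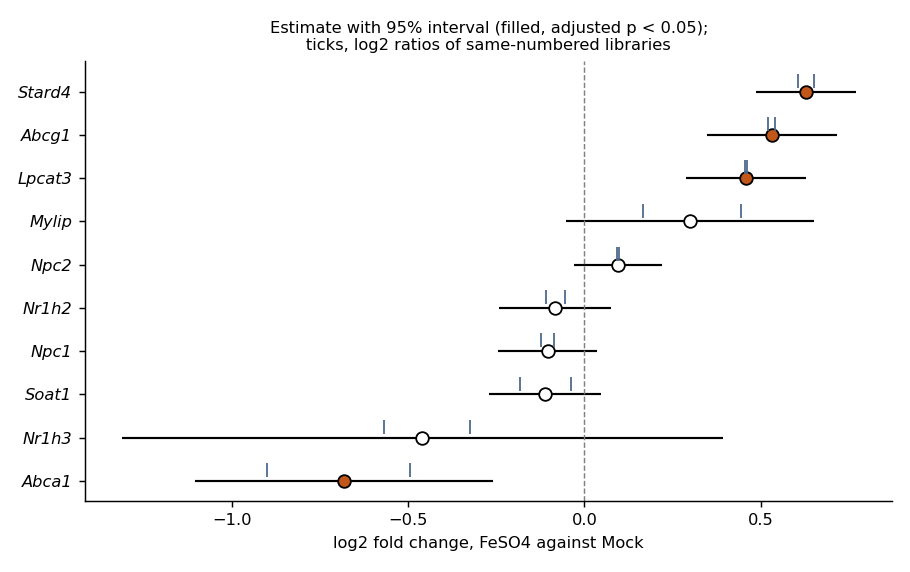
Log2 fold change of each of the 10 genes, FeSO4 against Mock (x axis), with the 95% interval of edgeR's quasi-likelihood fit as a line, a filled point for an adjusted p under 0.05 and small ticks for the log2 ratios of libraries with the same number. The labels do not say that same-numbered libraries form a pair, so the ticks are not known replicate effects. Intervals clear of 0 are seen for Stard4, Abcg1, Lpcat3 and Abca1, and the widest interval belongs to Nr1h3, which runs from -1.31 to 0.39.

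The 3 genes whose values over the 4 libraries were most like those of Stard4, among 8521 others with a mean of at least 10 CPM, were Hk2, Icos and Dbi. Likeness was the root mean square difference of log2 CPM after centring on the Mock mean, and it was 0.0185 for Hk2, 0.0237 for Icos and 0.0252 for Dbi. Hk2 (hexokinase 2) measured 17.3 and 17.4 CPM in the Mock libraries, against 26.1 and 26.6 CPM with FeSO4. Icos, a costimulatory receptor of T cells, measured 104 and 104 CPM in the Mock libraries, against 160 and 158 CPM with FeSO4, and Dbi, which binds acyl-CoA, went from 98.8 and 94.6 to 144 and 152 CPM.

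Compared per length, the lysosomal protein genes and LXRβ led the order in Mock, and Abca1 and LXRα closed it in both groups. In Mock, the mean level per kilobase of exon was 94.5 CPM for Npc2, 38.2 for Nr1h2, 19.0 for Npc1, 16.8 for Stard4, 16.6 for Soat1, 14.3 for Lpcat3, 12.9 for Abcg1, 2.47 for Mylip, 0.704 for Abca1 and 0.544 for Nr1h3. Neighbours in this order did not overlap between their libraries, except Stard4 and Soat1. In FeSO4, Stard4 came after Npc2 and Nr1h2 at 26.0 CPM per kilobase, followed by Lpcat3 at 19.7 and Abcg1 at 18.6, whereas Npc1 (17.7) and Soat1 (15.4) came after them. There the libraries of Lpcat3 and Abcg1, of Abcg1 and Npc1, and of Abca1 and Nr1h3 overlapped.

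**Figure D3:**
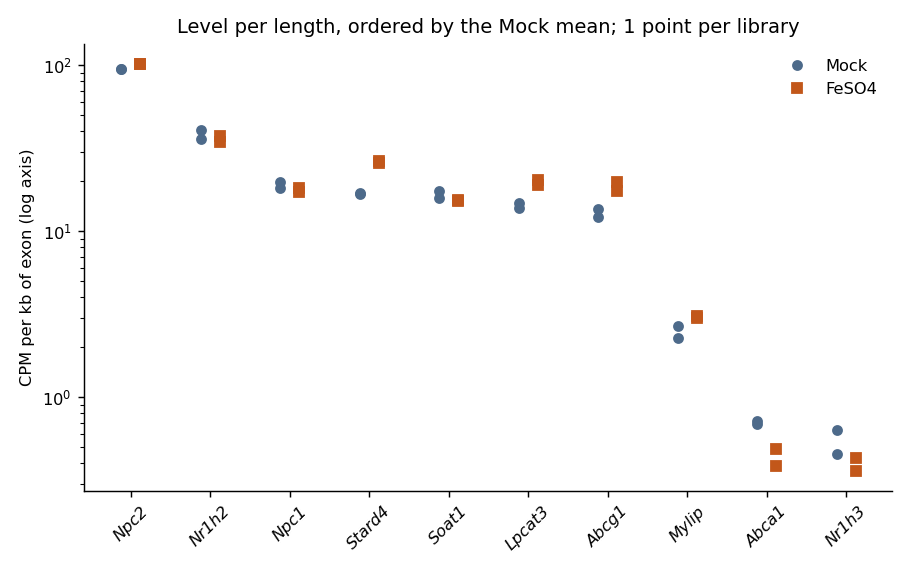
Level in CPM per kilobase of annotated exon (log axis) of the 10 genes, ordered by their Mock mean, with 1 circle per Mock library and 1 square per FeSO4 library. Npc2 stands highest at about 94.5 in Mock, and Mylip, Abca1 and Nr1h3 lie apart from the other 7 genes, all under 3.1 in each library.

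The genes around the LXR pathway were then counted by list, and each share called is read against the 20.0% of all tested genes. Of 13 tested partners and cofactors of LXR, 1 was higher and 5 were lower in FeSO4 (46.2% called, median log2 fold change -0.13). The lower ones included Nrip1, a corepressor of nuclear receptors (-0.70 ± 0.11, SE, edgeR adjusted p = 0.000279), and the acetyltransferase gene Ep300 (-0.36 ± 0.08). Rxrb (-0.21 ± 0.07) and Ncor1 (-0.26 ± 0.07), named after their values were seen, were also lower. Rxrb lost its call when any 1 library was left out (adjusted p from 0.0898 to 0.209), and Ncor1 lost it without Mock replicate 2 (-0.13, adjusted p = 0.25) or FeSO4 replicate 1 (adjusted p = 0.128). The higher one, Tbl1xr1 (0.22 ± 0.08), kept its call in only 3 of 14 other fits. Rxra, the gene of a heterodimer partner of LXR, measured 142 and 136 CPM in the Mock libraries, against 166 and 139 CPM with FeSO4 and was not called (adjusted p = 0.266), and Rxrg had 0 counts in every library.

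Other known LXR targets were split, with 4 of 14 tested genes higher and 3 lower (50% called, median 0.09). Srebf1, which encodes the activator of fatty acid synthesis SREBP1, measured 197 and 189 CPM in the Mock libraries, against 351 and 332 CPM with FeSO4 (log2 fold change 0.82 ± 0.06, edgeR adjusted p = 1.63e-07). The desaturase gene Scd2 (1.73 ± 0.07) and the small GTPase gene Arl4c (0.39 ± 0.06) rose as well, and so did the fatty acid synthase gene Fasn (0.40 ± 0.07), named after its values were seen. Srebf1, Scd2 and Fasn are also targets of SREBP. The lower genes were the transporter gene Abca2 (-0.34 ± 0.06), the chemokine receptor gene Ccr7 (-0.24 ± 0.06) and Apoe. The adjusted p of Ccr7 was 0.0594 without Mock replicate 1, 0.191 without FeSO4 replicate 1 and 0.105 with all genes of at least 1 count.

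Apoe, an apolipoprotein that accepts cholesterol, fell from 11.1 and 7.01 CPM in Mock to 5.58 and 5.27 CPM in FeSO4 (log2 fold change -0.74 ± 0.22, edgeR adjusted p = 0.0249). Mock replicate 1 was the highest library, and without it the value was -0.38 (adjusted p = 0.315). Without FeSO4 replicate 2 it was -0.69 (adjusted p = 0.0648). Apoe is itself among the 15 myeloid markers, and the part of such cells in its level was not tested. Apoa1, the main acceptor for Abca1, had 21 and 24 counts in the Mock libraries but 0 with FeSO4, at least 6.23-fold lower when set against 3 counts in the shallower FeSO4 library. Its adjusted p was 0.0731 with all genes of at least 1 count, 0.0797 without FeSO4 replicate 1 and 0.0669 without FeSO4 replicate 2, and DESeq2 gave none. On the uptake side, Scarb1, the HDL receptor gene (0.79 ± 0.10), and Lrp8 (0.55 ± 0.10) rose. In all, 3 of 6 tested genes of this list were higher and 2 were lower (83.3% called).

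Esterification and ester hydrolysis gave 2 higher and 2 lower genes of 9 (44.4% called, median -0.05). Soat2, the second cholesterol acyltransferase gene, was far less abundant than Soat1, with 125 and 153 reads in Mock and 216 and 225 in FeSO4 (0.87 ± 0.22, edgeR adjusted p = 0.00898). The lipid droplet gene Plin3 rose (0.37 ± 0.09), while the droplet gene Plin2 (-0.92 ± 0.28) and the ester hydrolase gene Lipe (-0.38 ± 0.11) fell. Each of the 4 lost its call in at least 1 fit with a library left out. Soat2 lost it without Mock replicate 1 (0.75, adjusted p = 0.0636), and Plin3 without Mock replicate 2 (0.26, adjusted p = 0.0687) or FeSO4 replicate 1 (0.31, adjusted p = 0.0616). Both lower genes lost their call without Mock replicate 1, with -0.43 for Plin2 (adjusted p = 0.369) and -0.28 for Lipe (adjusted p = 0.167). Plin2 lost it without FeSO4 replicate 1 too (-0.78, adjusted p = 0.0958). Lipe lost it without FeSO4 replicate 1 (-0.38, adjusted p = 0.0869) or 2 (-0.38, adjusted p = 0.0908), with a log2 fold change about as large as with all 4 libraries.

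Of 28 tested genes for sterol transport between membranes, 21 were not called, 3 were higher and 4 were lower (25% called, median -0.06), a share near the 20.0% of all tested genes. Those that rose were Tmem97, a sterol-regulated binding partner of NPC1 (0.85 ± 0.09, edgeR adjusted p = 4.46e-06), Osbpl3 (0.48 ± 0.06) and Vapa (0.25 ± 0.07), which encode a lipid transfer protein and its membrane anchor. Those that fell were the phosphatidylcholine carrier gene Pctp (-1.22 ± 0.26), the lysosomal membrane genes Scarb2 (-0.27 ± 0.07) and Lamp1 (-0.20 ± 0.07, named after its values were seen), and Osbpl7 (-0.26 ± 0.09). Vapa, Lamp1 and Osbpl7 kept their calls in 9, 9 and 7 of 14 other fits, and Scarb2 lost its own without FeSO4 replicate 1 (adjusted p = 0.105).

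**Figure D4:**
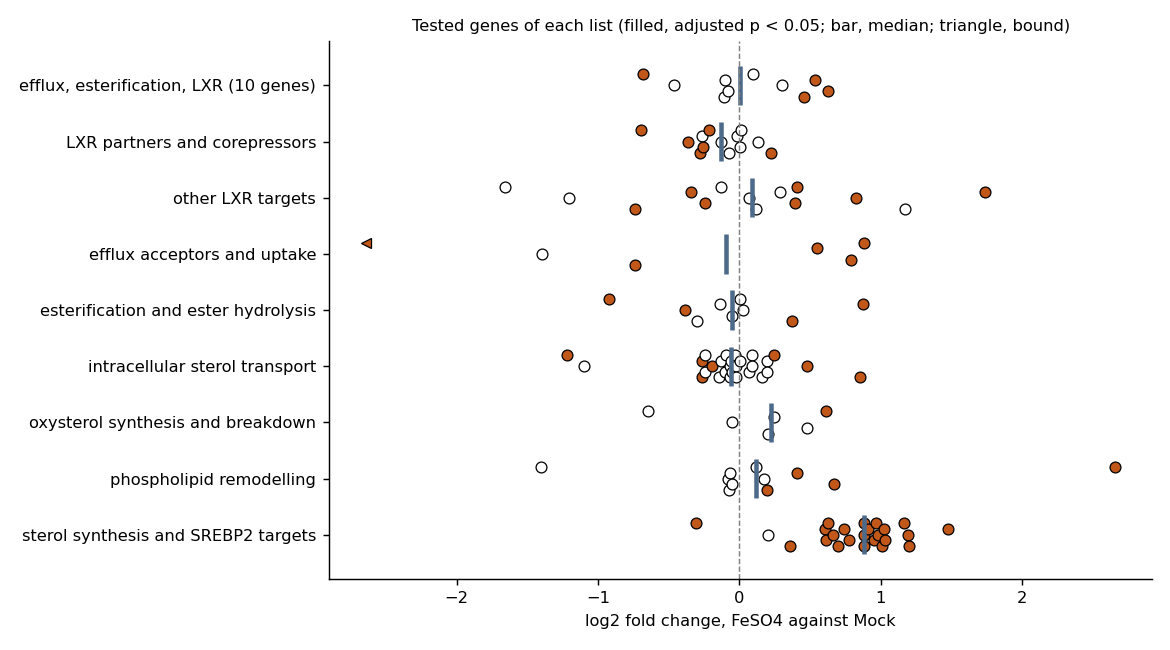
Log2 fold change, FeSO4 against Mock (x axis), of each tested gene of the 10 genes described here, of the 7 lists around them and of sterol synthesis, with a filled point for an adjusted p under 0.05, a bar at the median of each list and a triangle at the bound of Apoa1. The sterol synthesis genes gather near a median of 0.88, while the bars of the other lists lie between -0.13 and 0.22.

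The opposite pathway moved nearly as a block. Without Stard4, 21 of 23 tested genes of sterol synthesis and SREBP2 targets were higher and 1 was lower in FeSO4 (95.7% called, median log2 fold change 0.88). Those of smallest p were Cyp51 (1.19 ± 0.07), Sqle (0.98 ± 0.07) and Msmo1 (1.17 ± 0.08). The sensor gene Insig1 rose by 0.97 ± 0.07, and the SREBP escort gene Scap was the lower one (-0.30 ± 0.07), a call lost without FeSO4 replicate 2 (adjusted p = 0.0976). Over the 7 lists around the LXR pathway, each gene counted once, 18 of 86 tested genes were higher and 15 were lower (38.4% called, median -0.04). The value of Stard4, 0.63, was inside the range of the synthesis list, which ran from -0.30 to 1.48.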

How the data were processed

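RNA-seq libraries of iTreg cells, 2 Mock and 2 FeSO4, were grouped by their labels. The authors deposited unnormalized counts of reads for each Ensembl gene and library. The submitters' processing notes name mm10, Trim Galore 0.6.7, STAR 2.7.9a and featureCounts, whereas the study's methods name mm9, STAR and DESeq, and the closing rows of unassigned reads bear the names that htseq-count uses. The build behind the counts is therefore uncertain, and the annotation and strand setting are not given in the sources used here. Positions and exon lengths are those of mm9 (GENCODE M1, union of exons), for orientation. Promoter windows are RefSeq's on GRCm38.p6. The 5 closing rows (reads without a feature, 4.36 to 6.03% of a library; ambiguous, 3.78 to 3.91%; low quality, 0.802 to 0.988%; unaligned, 1.80 to 2.31%; more than 1 alignment, 4.27 to 4.62%) were left out.

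Symbols were matched to 32799 of 47729 IDs, and 180 of 183 listed symbols were found. Tests were run on these counts in edgeR 4.0.16 under R 4.3.3 (filterByExpr, TMM, glmQLFit, glmQLFTest, Benjamini-Hochberg adjustment over 13732 genes holding 99.95% of gene counts). The biological coefficient of variation was 8.24%. This edgeR release offers an older (legacy) and a newer quasi-likelihood fit. The newer one was chosen as the main fit after the results of both had been seen, because it gave the counts of an earlier analysis of these libraries. CPM use TMM-scaled library sizes, and the SE is the log2 fold change divided by the square root of F. Other fits were DESeq2 1.42.0, limma-voom (limma 3.58.1), other scalings and filters, a replicate block, the legacy fit and each library left out in turn. The fit was also tested on simulated data. There it called 39 of 64 genes with a log2 change of 0.5 in size, 51 of 65 with 1 and 56 of 64 with 2. It also called 19 of 13290 unchanged genes. Changes of about 0.5 can thus be missed. The replicate libraries differed by more than sampling noise (chi-square per degree of freedom 8.85 in Mock and 7.25 in FeSO4). The methods speak of 2 pairs from separate experiments, but neither they nor the labels say which libraries form a pair, so the numbers were treated as names and p-values measure the spread between these libraries.

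All 10 genes are named. Of each list, up to 3 genes of smallest p per direction with an adjusted p under 0.05 are named, as are Srebf1, Insig1 and Apoe. Some genes that this rule names, and a ratio of export to synthesis that needs one of them, are not reported here. Some genes named beyond this are marked as named after their values were seen. Others, such as Rxra, Rxrg, the oxysterol enzymes and the acyltransferases that were not called, carry no mark. Markers of T, myeloid, B, erythroid, platelet, CD8 and NK cells serve as checks. The genes and lists were chosen with earlier results of these data known.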

Additional observations from a re-analysis of the deposited data

How the results depend on the processing

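Of 150 values of the 10 genes under 15 alternatives each, 144 kept their direction and their side of the threshold, 6 lost the call and 0 reversed, and 8 genes kept every call. Abca1 lost its call with DESeq2 (-0.69), with all genes of at least 1 count (-0.68) and with Mock replicate 1, Mock replicate 2 or FeSO4 replicate 1 left out, with values from -0.86 to -0.53 when each library was left out. The count of lower genes among the 10 was then 0 (0 to 1 with a library left out). Lpcat3 (0.46) was not called at the study's threshold. Over all genes, 1491 were higher and 1259 lower. Scaling by library size only gave 980 and 1810 (35.1% of calls higher, against 54.2%), 524 and 304 with all genes of at least 1 count, 641 and 787 at the study's threshold, and 893 to 1199 and 710 to 1158 with a library left out. In the 7 lists, 2 genes were lower with all genes of at least 1 count and 6 to 15 with a library left out. In sterol synthesis the count was 0 with all genes of at least 1 count and 0 to 1 with a library left out. The median over all genes lay between -0.066 and -0.00052 under the scalings tried.

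The effect of testing all genes depended on the version of the fit. With the legacy fit, an alternative added after the data were seen, 1369 and 1215 genes were called higher and lower among all genes of at least 1 count, and Abca1 was called (-0.68, adjusted p = 0.0253). The legacy fit with the usual filter gave 1455 and 1221. The cause was not tested.

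The same-numbered libraries did not deviate together (r = 0.03 across 13732 genes), so the numbers were treated as names. With the replicate block, 1847 genes were higher and 1580 lower, and of the 10 genes 3 were higher and 1 was lower (Abca1 -0.68, adjusted p = 0.0158).

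The low counts of Nr1h3 and Abca1 limit their precision, and each SD over 2 libraries rests on 1 difference.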

Other observations

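Oxysterols, the natural activators of LXR, are made and cleared by enzymes that were mostly missing from these libraries. Ch25h, Cyp7a1 and Hsd3b7 had 0 counts in all 4 libraries, Cyp27a1 and Cyp7b1 had at most 1 count, and Cyp46a1 had 8 and 3 counts in the Mock libraries but 0 with FeSO4. Of 6 tested genes of this list, 1 was higher in FeSO4 and 0 were lower (16.7% called, median log2 fold change 0.22). That share was under the 20.0% of all tested genes. Gpr183, a receptor for oxysterols on lymphocytes named after its values were seen, measured 5.74 and 5.95 CPM in the Mock libraries, against 8.29 and 8.0 CPM with FeSO4 and did not pass the threshold (0.48 ± 0.18, adjusted p = 0.0686).

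In the list of phospholipid remodelling to which Lpcat3 belongs by function, 4 of 11 tested genes were higher in FeSO4 and 0 were lower (36.4% called, median 0.12). The desaturase gene Fads2 rose from 10.1 and 14.0 to 75.0 and 76.8 CPM (2.66 ± 0.11, edgeR adjusted p = 1.29e-10), and Fads1 rose by 0.67 ± 0.07. The acyltransferase gene Mboat1 rose by 0.40 ± 0.08, and the elongase gene Elovl5, named after its values were seen, by 0.19 ± 0.06, a call kept in 6 of 14 other fits. The acyltransferases Lpcat1 (-0.06 ± 0.07), Lpcat4 (-0.07 ± 0.09), Mboat2 (0.17 ± 0.35), Mboat7 (0.12 ± 0.08) and Lclat1 (-0.07 ± 0.10) were not called, and Lpcat2 had 43 and 43 counts in Mock and 8 and 20 in FeSO4 and was not called either (adjusted p = 0.0723).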
